A study of Mus musculus with 33 samples.

Results

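The genes considered here are 60 genes of mitosis and chromosome segregation, taken by name from a fixed list of mitotic kinases, spindle, kinetochore, chromosome and cytokinesis genes. All 60 were found among the 53735 gene names of each of the 9 tables deposited by the authors. RNA was sequenced from 3 sorted populations. Inflammatory monocytes (IM) were sorted as CD45+CD11b+Ly6C+Ly6G-. The macrophages of the tumour (TAM) were CD45+CD11b+ cells with moderate Ly6C, without Ly6G and with F4/80, and the CD8 T cells were CD45+CD8+. The cells came from pancreatic tumours grown in C57BL/6 mice after injection of KCKO cells, a mouse pancreatic cancer cell line, into the tail of the pancreas. Titanium markers for aiming the beam were placed beside each tumour. No genotype other than the strain, and no age or day of harvest, is given in the sources used here. The unirradiated group served as the control of each population. The SBRT group received stereotactic body radiotherapy, a focused irradiation delivered in 4 fractions, each of 6 Gy, from day 6 to day 9 after implantation. The IL-12 group received microspheres that release interleukin 12, a cytokine that activates T and natural killer cells, injected into the tumour on day 10 (0.5 µg in 2 mg of beads), and the combination group received SBRT followed by IL-12 microspheres. Empty microspheres are also named in the protocol, and the labels do not tell which groups received them. There were 3 libraries in each IM and CD8 group and in the TAM group given IL-12, and 2 libraries in each of the other TAM groups, 33 in all. The labels do not say whether libraries of a group came from separate mice, or whether the 3 populations came from the same tumours, so every p-value refers to the variation among the libraries, which may be technical.

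Dividing cells switch on a shared set of genes late in the cycle, whose products condense the chromosomes, build the spindle, attach it to the kinetochores, hold back anaphase until every chromosome is attached, and then split the cell. Most of these genes are silent in resting cells, where the DREAM complex represses them through a promoter element known as the CHR. Many of their promoters also hold CCAAT boxes, and in dividing cells MYBL2 and FOXM1 act on the same promoters. Activated CD8 T cells are known for rapid division, whereas many tumour macrophages arise from blood monocytes and a fraction of them divides within the tissue.

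Promoter sequences are shown because most of the matched members hold the letters of a CHR and of a CCAAT box. RefSeq promoters on GRCm38.p6, each from 250 bases before to 50 bases after the gene's start, were matched by symbol for 49 of the 60 members. The 11 members not matched were Ccna2, Cdc25c, Aurkb, Incenp, Kif20a, Tpx2, Esco2, Smc4, Foxm1, Stmn1 and Pkmyt1. The 6 printed below are the matched members with a CHR letter match and the smallest adjusted p in CD8 T cells after the combination. They are Mki67 (chr7:135716330-135716629, minus strand), Cdk1 (chr10:69352863-69353162, minus strand), Ncapg (chr5:45669675-45669974, plus strand), Ndc80 (chr17:71526808-71527107, minus strand), Bub1 (chr2:127831810-127832109, minus strand) and Cks1b (chr3:89418242-89418541, minus strand). Each is written 5′ to 3′ on the gene's strand, with capitals marking every match to a CHR (TTTGAA or TTCGAA) or a CCAAT box on either strand, so that TTCAAA and ATTGG are matches on the opposite strand.
Mki67: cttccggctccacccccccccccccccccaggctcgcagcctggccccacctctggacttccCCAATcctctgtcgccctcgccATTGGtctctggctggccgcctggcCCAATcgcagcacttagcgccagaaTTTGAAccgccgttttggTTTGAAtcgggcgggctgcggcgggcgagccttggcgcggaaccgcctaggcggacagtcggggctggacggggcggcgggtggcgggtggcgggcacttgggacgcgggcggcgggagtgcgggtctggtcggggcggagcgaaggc
Cdk1: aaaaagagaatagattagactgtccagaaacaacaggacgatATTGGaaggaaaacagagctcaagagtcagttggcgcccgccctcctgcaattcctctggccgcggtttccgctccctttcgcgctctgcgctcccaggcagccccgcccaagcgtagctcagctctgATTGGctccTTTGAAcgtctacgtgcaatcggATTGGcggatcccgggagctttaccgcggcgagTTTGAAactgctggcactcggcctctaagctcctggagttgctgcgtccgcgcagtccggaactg
Ncapg: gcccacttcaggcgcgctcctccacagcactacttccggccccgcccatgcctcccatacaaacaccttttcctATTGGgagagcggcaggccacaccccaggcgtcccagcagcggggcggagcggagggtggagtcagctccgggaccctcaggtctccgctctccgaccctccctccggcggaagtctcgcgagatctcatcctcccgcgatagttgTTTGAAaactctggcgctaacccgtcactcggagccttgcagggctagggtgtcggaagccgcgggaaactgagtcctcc
Ndc80: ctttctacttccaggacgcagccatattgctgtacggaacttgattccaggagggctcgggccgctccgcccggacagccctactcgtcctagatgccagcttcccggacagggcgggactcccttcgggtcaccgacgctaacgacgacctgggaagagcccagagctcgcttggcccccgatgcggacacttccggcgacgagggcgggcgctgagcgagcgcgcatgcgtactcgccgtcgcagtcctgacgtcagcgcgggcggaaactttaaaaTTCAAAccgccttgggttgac
Bub1: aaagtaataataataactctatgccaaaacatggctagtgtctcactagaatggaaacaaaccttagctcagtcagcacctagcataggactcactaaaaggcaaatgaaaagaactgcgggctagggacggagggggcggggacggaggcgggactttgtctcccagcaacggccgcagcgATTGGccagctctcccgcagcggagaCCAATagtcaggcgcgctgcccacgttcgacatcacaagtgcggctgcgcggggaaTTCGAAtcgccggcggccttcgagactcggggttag
Cks1b: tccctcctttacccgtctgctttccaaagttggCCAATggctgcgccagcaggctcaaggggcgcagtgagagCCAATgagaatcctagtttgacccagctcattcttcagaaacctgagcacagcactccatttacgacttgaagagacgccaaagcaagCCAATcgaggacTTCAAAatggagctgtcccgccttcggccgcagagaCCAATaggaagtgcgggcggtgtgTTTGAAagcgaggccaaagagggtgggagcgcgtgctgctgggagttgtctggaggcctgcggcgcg

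The letters of a CHR were present in 37 of the 49 matched members (75.5%), against 19.4% of all 27025 promoters of the same length. A CCAAT match was present in 35 members (71.4%), against 37.9% of all promoters, and both stood together in 32 members (65.3%), against 7.7%. Within the stretch from 60 bases before to 50 bases after the start, 34 members (69.4%) held a CHR match, against 5.86% of all promoters. Among the sequences shown, the CHR match nearest to the start began at position -98 in Mki67, -15 in Cdk1, -30 in Ncapg, 30 in Ndc80, 15 in Bub1 and -17 in Cks1b, counted with the first transcribed base as 1 and the base before it as -1. In Mki67, 3 CCAAT boxes stood upstream of 2 CHR matches, whereas Ndc80 had no CCAAT match in the window. An E2F match (TTTCCCGC or TTTGGCGC, either strand) was found in 3 members, Kif15, Ncapd2 and Ncapg (6.12%), against 1.63% of all promoters. Each motif was searched separately, so matches of different motifs may share bases. The medians of members with and without the CHR letters lay close together, and their difference was not tested. After the combination in CD8 T cells the median log2 fold change was 0.78 in the 37 members with a match and 0.73 in the 12 without. After SBRT in TAM it was -0.69 and -0.73. These are letter matches and describe the window only.

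Relative to other genes, the members stood high in CD8 T cells and low in IM. The tables give 1 normalised level per gene and population, the mean over all its libraries, and 1 fold change per comparison, so values of single libraries and the overlap between groups are not shown. Per kilobase of exon, the median level of the members was 767 in CD8 T cells, where the median of all genes with a level of at least 50 was 320. It was 81.2 in TAM, against 242 for all genes, and 34 in IM, against 255. The median member thus stood at percentile 72 of the per-kilobase levels in CD8 T cells, 23 in TAM and 11 in IM. The populations were normalised separately, so these levels are set side by side without a test. Mki67, the proliferation antigen that coats mitotic chromosomes, had 948 per kilobase in CD8 T cells, 282 in TAM and 108 in IM. The highest members per kilobase were Stmn1 in CD8 T cells (7175) and Cks2 in TAM (3351) and IM (2851). The lowest were Cenpp in CD8 T cells (124) and Cenpf in TAM (7.44) and IM (3.34).

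The 3 populations were each compared with their own unirradiated group. In CD8 T cells members rose and none fell, with 3 called higher after SBRT, 32 after IL-12 and 55 after the combination. In TAM members fell and none rose, with 22 called lower after SBRT, 1 after IL-12 and 25 after the combination. In IM 0, 2 and 7 were called higher and none lower. A member is called here when its adjusted p in the authors' deposited table is below 0.05. Members at an unadjusted p below 0.05 in these comparisons are also counted, and the share of all genes at that p is not given. Only Cdc25c, a phosphatase that activates Cdk1, and Knstrn, a spindle and kinetochore adaptor, were called in no comparison. All fold changes are log2 values from the authors' deposited tables, which were shrunken towards 0 by the authors. The error after ± is the standard error implied by the fold change and its Wald statistic. With shrunken values it is approximate, and near 0 it can be far too small or too large. In TAM after IL-12 it was 0.01 for Knstrn and 0.57 for Ect2, against 0.26 and 0.25 after SBRT. In bulk RNA of sorted cells, a smaller share of dividing cells and less of the RNA per dividing cell cannot be told apart.

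**Figure D1:**
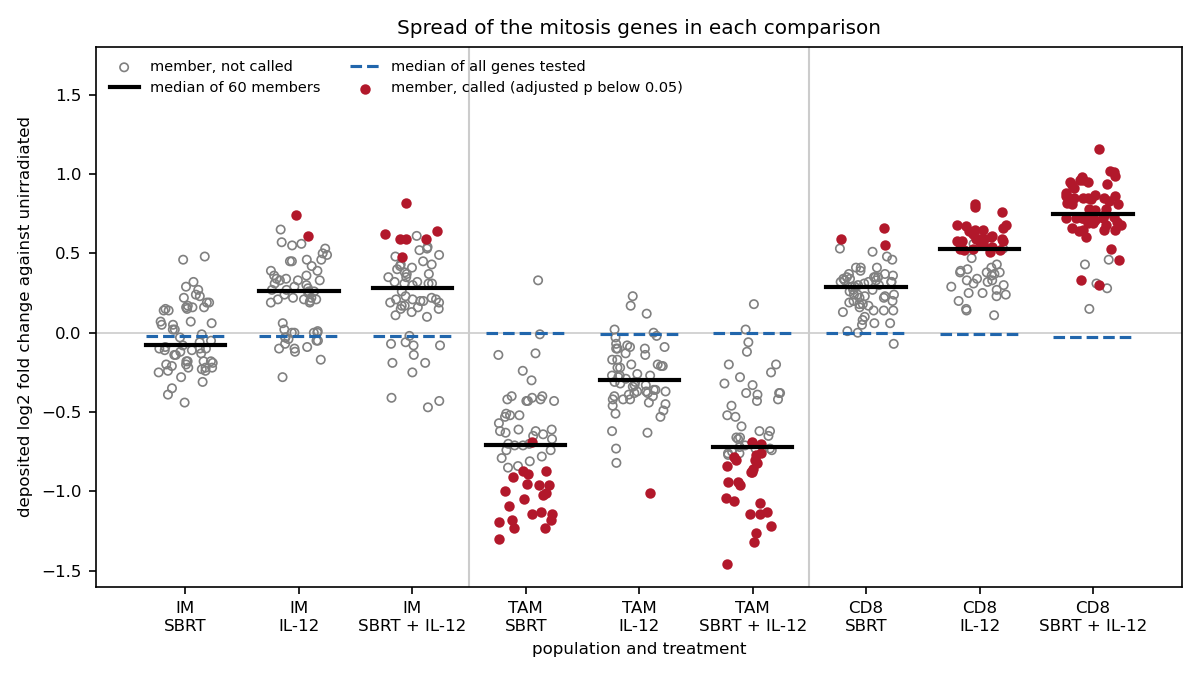
Deposited log2 fold change of each of the 60 genes against the unirradiated group (vertical axis) in the 9 comparisons (horizontal axis); filled points have an adjusted p below 0.05, black bars are the medians of the 60 genes and dashed blue bars those of all genes tested. The CD8 medians lie at 0.29, 0.53 and 0.75, the TAM medians at -0.71, -0.30 and -0.72 and the IM medians at -0.08, 0.26 and 0.28.

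**Figure D2:**
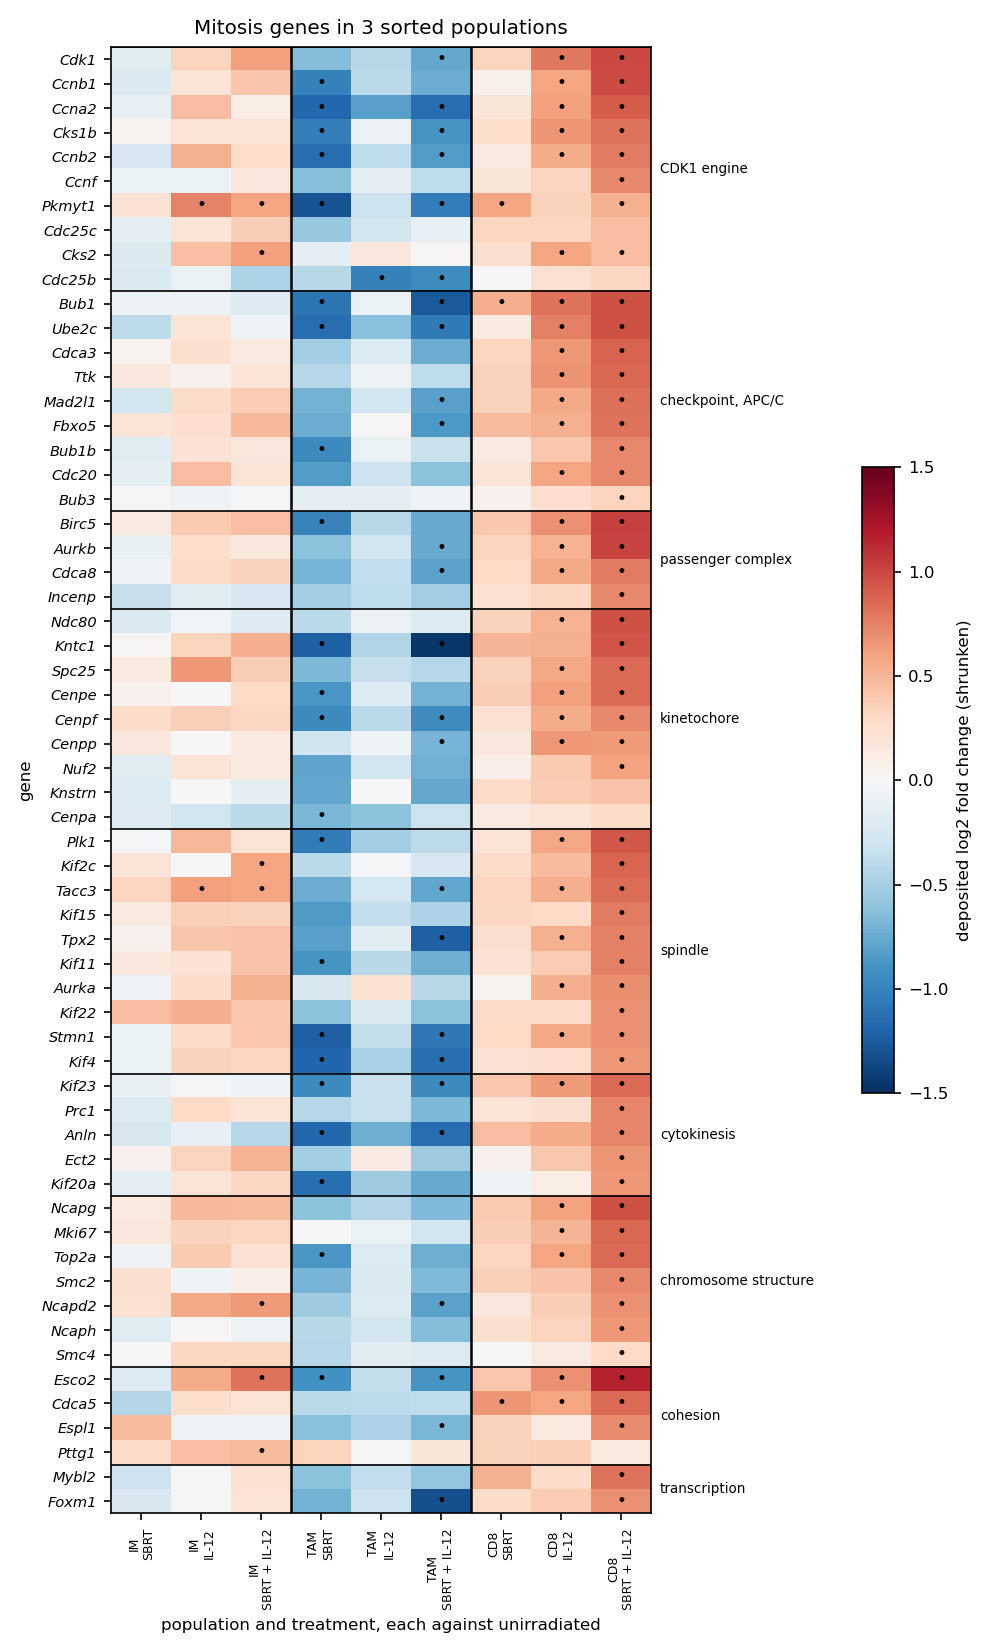
The same deposited log2 fold changes by gene, grouped by role (vertical axis) and by population and treatment (horizontal axis); red is higher and blue lower than in unirradiated tumours, and a dot marks an adjusted p below 0.05. The CD8 columns are red for nearly every gene, and the TAM columns are blue for 59 genes after SBRT and 58 after the combination, some of them only faintly, such as Mki67 at -0.01 and -0.28.

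Most members rose in CD8 T cells after the combination. Of the 60 members 55 rose (91.7%), against 4.51% of all 15115 genes tested, and none fell, against 2.96%. All 60 fold changes were above 0, with a median of 0.75 (1.69-fold) against -0.03 for all genes tested, and 59 members were higher at an unadjusted p below 0.05. The 5 not called were Cdc25b (0.31 ± 0.11), Cdc25c (0.46 ± 0.20), Cenpa (0.28 ± 0.11), Knstrn (0.43 ± 0.19) and Pttg1 (0.15 ± 0.13). The highest was Esco2, the acetyltransferase that establishes cohesion between sister chromatids, at 1.16 ± 0.16 (2.23-fold, adjusted p = 5.4e-10). The Wald statistics of all genes in this table had a robust SD of 1.40 in place of 1, and after division by it 33 members passed.

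The regulators of Cdk1 and of anaphase rose together in CD8 T cells after the combination. Cdk1, the kinase that drives entry into mitosis, rose by 0.99 ± 0.14 (adjusted p = 5.7e-10). Its partners cyclin B1 and cyclin A2 rose by 0.98 ± 0.17 (Ccnb1, adjusted p = 1.1e-06) and 0.91 ± 0.16 (Ccna2, adjusted p = 5.3e-06). Pkmyt1, a kinase that restrains Cdk1, rose by 0.53 ± 0.12 (adjusted p = 2.5e-04), and 8 of the 10 cyclin and Cdk genes were called in all. All 9 genes of the spindle checkpoint and the anaphase-promoting complex rose, with a median of 0.83. Bub1, a checkpoint kinase at the kinetochore, and Ube2c, the ubiquitin-conjugating enzyme of the complex, had the smallest adjusted p, at 0.96 ± 0.14 (3.0e-09) and 0.96 ± 0.15 (3.1e-08). Fbxo5, which inhibits the complex before mitosis, rose by 0.82 ± 0.14 (adjusted p = 3.9e-07). Bub3, the adaptor that brings checkpoint kinases to the kinetochore, rose least of the group, by 0.33 ± 0.11 (adjusted p = 0.046). Cks1b rose by 0.81 ± 0.12 (adjusted p = 7.3e-09) and Bub1b by 0.72 ± 0.18 (0.0021).

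Genes of chromosome attachment, the spindle and cell division rose as well. The 4 genes of the chromosomal passenger complex, which corrects wrong attachments, all rose, and their median of 0.90 was the highest of the 9 role groups. Birc5 (survivin) rose by 1.02 ± 0.14 (adjusted p = 4.9e-10), Aurkb, its kinase, by 1.01 ± 0.14 (9.6e-10) and Incenp, its scaffold, by 0.72 ± 0.10 (2.7e-09). Of 9 kinetochore genes 7 rose, among them Ndc80, which binds the microtubule, by 0.95 ± 0.14 (adjusted p = 2.7e-09). All 10 spindle genes rose. Tacc3, which stabilises kinetochore fibres, rose by 0.84 ± 0.13 (adjusted p = 4.5e-08), Plk1, a kinase of spindle assembly, by 0.93 ± 0.16 (8.0e-07), and Kif4, a chromosome-bound motor, by 0.65 ± 0.18 (0.0099). All 5 cytokinesis genes rose, from Kif20a, a motor of the midzone, at 0.65 ± 0.18 (adjusted p = 0.0064) to Kif23, a motor of the central spindle, at 0.85 ± 0.14 (1.9e-07). Stmn1 rose by 0.68 ± 0.13 (adjusted p = 2.1e-05).

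All 7 genes of chromosome structure rose, as did both transcription factors. Mki67 rose by 0.86 ± 0.12 (adjusted p = 1.9e-10), which was the smallest adjusted p of the 60 members, and Ncapg, a condensin subunit, by 0.95 ± 0.14 (1.7e-09). Top2a, the topoisomerase that untangles sister chromatids, rose by 0.85 ± 0.14 (adjusted p = 7.8e-07). Smc4, a condensin ATPase, rose by 0.30 ± 0.10 (adjusted p = 0.029), which was the lowest value of the group. Of the 4 cohesion genes, Esco2, Cdca5 (sororin, 0.85 ± 0.16) and Espl1 (separase, 0.71 ± 0.16) rose, and Pttg1, the securin that holds separase inactive, was at 0.15 ± 0.13 (adjusted p = 0.56). Mybl2 rose by 0.81 ± 0.16 (adjusted p = 7.9e-05) and Foxm1 by 0.68 ± 0.16 (0.0012).

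IL-12 alone also raised members of most role groups in CD8 T cells. Of the 60 members 32 rose (53.3%), against 1.48% of all 13876 genes tested, and none fell, against 1.04%. The median was 0.53 (1.44-fold), against -0.01 for all genes, and 49 members were higher at an unadjusted p below 0.05. Bub1 rose by 0.81 ± 0.14 (adjusted p = 1.3e-05), Cdk1 by 0.79 ± 0.14 (1.8e-05), Cks1b, a small Cdk-binding subunit, by 0.66 ± 0.12 (3.4e-05) and Ube2c by 0.76 ± 0.15 (1.6e-04). Of the checkpoint and anaphase genes 7 of 9 were called, of the cyclin and Cdk genes 6 of 10, of the passenger genes 3 of 4, of the kinetochore genes 5 of 9 and of the spindle genes 5 of 10. Of the 5 cytokinesis genes 1 was called (Kif23, 0.64 ± 0.14, adjusted p = 0.001), and Kif20a stood at 0.11 ± 0.17. Cks2 rose by 0.59 ± 0.12 (adjusted p = 2.8e-04), Birc5 by 0.68 ± 0.14 (6.1e-04), Stmn1 by 0.58 ± 0.13 (0.0022), Mki67 by 0.51 ± 0.12 (0.0025), Ncapg by 0.60 ± 0.14 (0.0026) and Esco2 by 0.68 ± 0.16 (0.0043). The same direction was called for Top2a (0.59 ± 0.14), Plk1 (0.58 ± 0.16), Aurkb (0.52 ± 0.14) and Ccnb1 (0.59 ± 0.17), but Bub1b was at 0.41 ± 0.18 (adjusted p = 0.22). Neither Foxm1 (0.38 ± 0.16) nor Mybl2 (0.27 ± 0.16) was called. The statistics of all genes had a robust SD of 1.30, and after division by it 4 members passed (Bub1, Cdk1, Cks1b and Ube2c).

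SBRT alone raised 3 members in CD8 T cells (5%), against 0.306% of all 16359 genes tested, and lowered none, against 0.165%. They were Cdca5 at 0.66 ± 0.16 (adjusted p = 0.016), Pkmyt1 at 0.59 ± 0.12 (0.0022) and Bub1 at 0.55 ± 0.14 (0.03). The median was 0.29 (1.22-fold), 58 of 60 fold changes were above 0 and 29 members were higher at an unadjusted p below 0.05. Mki67 was at 0.37 ± 0.12 (adjusted p = 0.12), Cdk1 at 0.33 ± 0.14 (0.33), Ccnb1 at 0.08 ± 0.17 (0.9) and Plk1 at 0.20 ± 0.16 (0.7). Top2a (0.32 ± 0.14), Aurkb (0.33 ± 0.14), Bub1b (0.14 ± 0.18), Foxm1 (0.27 ± 0.16) and Stmn1 (0.30 ± 0.13) were not called either. After division by the robust SD of 1.24 no member passed.

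**Figure D3:**
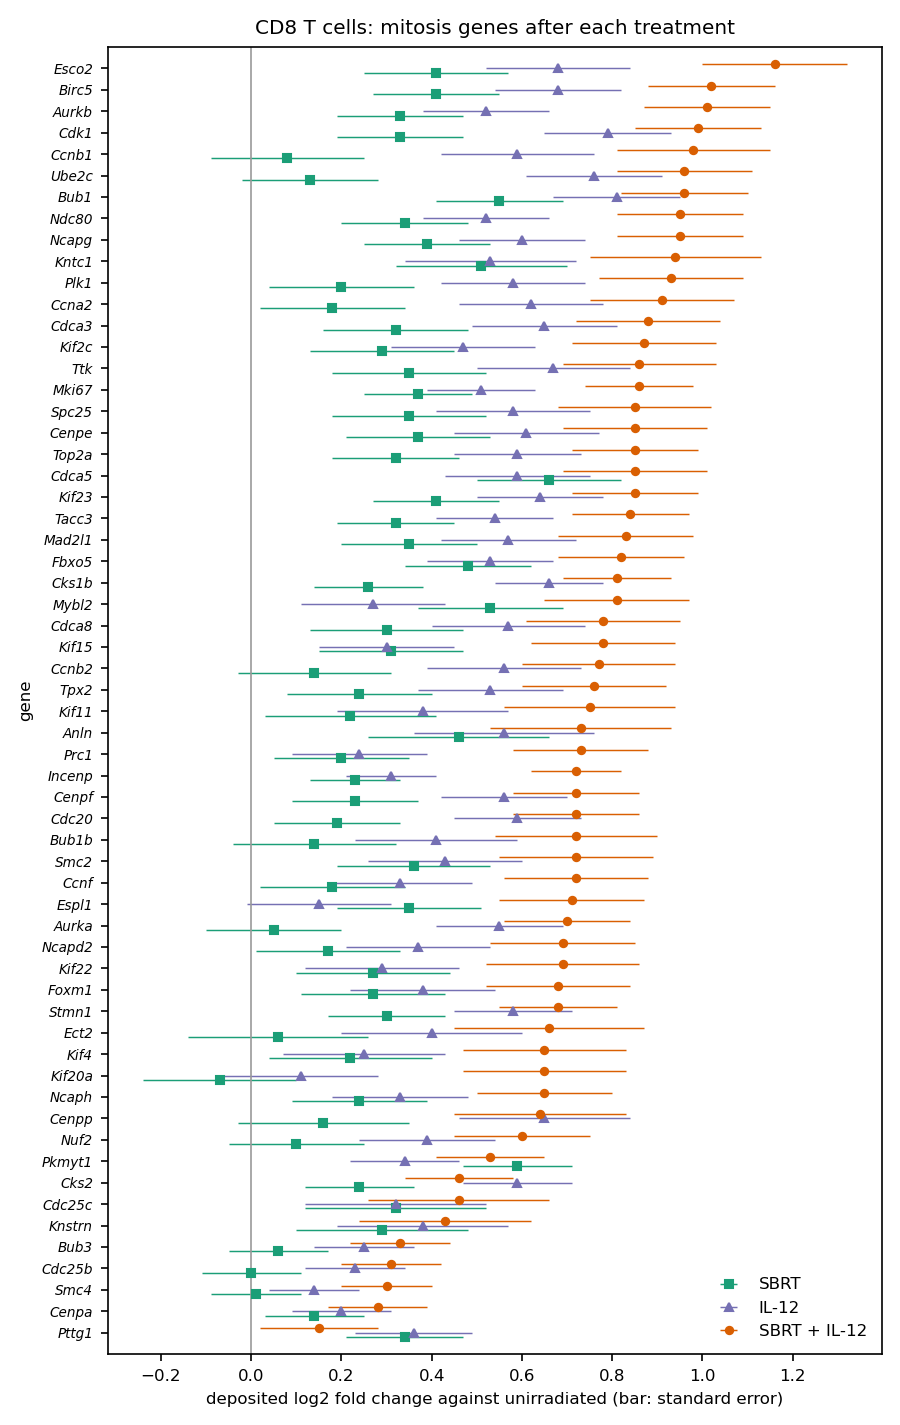
Deposited log2 fold changes of the 60 genes in CD8 T cells against unirradiated (horizontal axis; bars are standard errors) after SBRT, IL-12 and the combination, 1 gene per line (vertical axis). The combination points lie furthest to the right for most genes, and Pttg1, at 0.34, 0.36 and 0.15, is among the exceptions.

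The 3 CD8 comparisons share their control libraries, so the treatments were compared with each other directly. From SBRT to the combination 58 of 60 differences were above 0, with a median of 0.49 on the log2 scale, and 41 members had an unadjusted p below 0.05. Of all 33127 genes, 1054 passed at that p in either direction. No member passed adjustment over all genes, where 0.0755% did in either direction. The smallest adjusted p was 0.063 for Ube2c (difference 0.83 ± 0.21), followed by Ccnb1 (0.90 ± 0.24, adjusted p = 0.1). With the variance of the shared controls taken out of the error 23 members passed, and with genes of a level of at least 50 only, 2 did. The share of all genes that passed under either setting was not counted. From IL-12 to the combination the median difference was 0.26, with 10 members at an unadjusted p below 0.05. At that p 440 of all genes passed in either direction, and after adjustment no member did (0.00302% of all genes). From IL-12 to SBRT the median was -0.22, with 6 lower at an unadjusted p below 0.05 (811 of all genes in either direction). No member passed after adjustment (0.0211% of all genes), and 1 did with the control variance removed. The interaction, by which the combination departs from SBRT and IL-12 added together, had a median of -0.01 and no member after adjustment (0.00302% of all genes). At an unadjusted p below 0.05, 1 member was higher and 1 lower, and 609 of all genes passed in either direction.

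In TAM, mitotic transcripts fell after SBRT. Of the 60 members 22 fell (36.7%), against 1.15% of all 18436 genes tested, and none rose, against 0.933%. The median was -0.71 (0.613-fold), against 0.00 for all genes tested, 59 of 60 fold changes were below 0 and 46 members were lower at an unadjusted p below 0.05. These groups held 2 libraries each, and the median standard error was 0.26, against 0.16 in CD8 T cells. Stmn1, which destabilises microtubules, fell by 1.23 on the log2 scale (-1.23 ± 0.21, adjusted p = 1.8e-06), the smallest adjusted p of the members. Pkmyt1 had the lowest value, -1.30 ± 0.26 (adjusted p = 1.1e-04).

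Genes called lower in TAM after SBRT came from 8 of the 9 role groups, the transcription factors being the exception, with Foxm1 at -0.71 ± 0.28 and Mybl2 at -0.61 ± 0.27. Among 5 of 10 cyclin and Cdk genes were Cks1b at -1.02 ± 0.22 (adjusted p = 5.1e-04), Ccna2 at -1.18 ± 0.26 (8.8e-04), Ccnb2 at -1.14 ± 0.26 (0.0016) and Ccnb1 at -1.01 ± 0.26 (0.01). Of 9 checkpoint and anaphase genes 3 fell, namely Ube2c (-1.14 ± 0.26), Bub1 (-1.09 ± 0.26) and Bub1b (-0.96 ± 0.23), the last a part of the checkpoint complex that blocks Cdc20. Of 10 spindle genes 4 fell, among them Kif4 (-1.19 ± 0.25, adjusted p = 5.1e-04) and Plk1 (-1.05 ± 0.26, 0.0058). Of 9 kinetochore genes 4 fell, led by Kntc1, which recruits dynein and checkpoint proteins (-1.23 ± 0.27, adjusted p = 8.6e-04). Of 5 cytokinesis genes 3 fell, led by Anln, the scaffold of the contractile ring (-1.18 ± 0.25, adjusted p = 6.2e-04), and by Kif20a (-1.13 ± 0.27, 0.0029). Top2a (-0.87 ± 0.24), Birc5 (0.501-fold, adjusted p = 0.015) and Esco2 (-0.91 ± 0.27) were the only called members of their groups.

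The other 38 members did not pass the test in TAM after SBRT. Mki67 was at -0.01 ± 0.26 (adjusted p = 1), Cks2 at -0.13 ± 0.19, Bub3 at -0.14 ± 0.16 and Aurka, the kinase of the spindle poles, at -0.24 ± 0.24. Pttg1, at 0.33 ± 0.19, was the only member above 0. Cdk1 was at -0.65 ± 0.22 (adjusted p = 0.11) and Aurkb at -0.61 ± 0.25 (0.24).

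After the combination 25 members fell in TAM (41.7%), against 1.97% of all 17224 genes tested, and none rose, against 2.24%. The median was -0.72 (0.606-fold), 58 of 60 fold changes were below 0 and 43 members were lower at an unadjusted p below 0.05. The lowest was Kntc1, at -1.46 ± 0.26 (0.364-fold, adjusted p = 8.8e-06). Foxm1, which was not called after SBRT, was at -1.32 ± 0.26 (0.399-fold, adjusted p = 5.1e-05). Stmn1 fell by 1.07 (-1.07 ± 0.21, adjusted p = 5.7e-05), and Bub1 was at -1.26 ± 0.25 (1.3e-04). Tpx2, which activates Aurora A on the spindle, was at -1.22 ± 0.25 (2.1e-04), and Anln at -1.14 ± 0.25 (7.7e-04). After division of the statistics by their robust SD of 1.16 11 members passed.

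By role, 6 of 10 cyclin and Cdk genes fell in TAM after the combination, among them Ccna2 (-1.14 ± 0.26, adjusted p = 0.0011) and Cdk1 (-0.77 ± 0.22, 0.02). Of 9 checkpoint and anaphase genes 4 fell, Mad2l1, a checkpoint protein that binds Cdc20, being at -0.82 ± 0.23 (adjusted p = 0.014). Of 4 passenger genes 2 fell, Cdca8 (borealin, -0.80 ± 0.24) and Aurkb (-0.76 ± 0.25, adjusted p = 0.046). The other counts were 3 of 9 kinetochore, 4 of 10 spindle, 2 of 5 cytokinesis, 1 of 7 chromosome structure, 2 of 4 cohesion and 1 of 2 transcription genes. Plk1 (-0.39 ± 0.29, adjusted p = 0.63), Bub1b (-0.33 ± 0.24, 0.62), Ccnb1 (-0.74 ± 0.27, 0.1) and Top2a (-0.73 ± 0.24, 0.059) were not called after the combination. Cks2 (0.02 ± 0.19), Bub3 (-0.06 ± 0.16), Cdc25c (-0.12 ± 0.30) and Pttg1 (0.18 ± 0.19) had the values nearest to 0, and Mki67 was at -0.28 ± 0.25 (adjusted p = 0.75).

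IL-12 alone changed 1 member in TAM (1.67%), against 0.284% of all 19042 genes tested that fell and 0.651% that rose. It was Cdc25b, the phosphatase that starts Cdk1 activation, at -1.01 ± 0.24 (adjusted p = 0.0069). The median was -0.30, 56 of 60 fold changes were below 0 and 10 members were lower at an unadjusted p below 0.05. Ccna2 was at -0.82 ± 0.24 (adjusted p = 0.065), Mki67 at -0.10 ± 0.23 and Aurka at 0.23 ± 0.26. Plk1 (-0.51 ± 0.26), Cdk1 (-0.42 ± 0.20), Ccnb1 (-0.40 ± 0.24), Stmn1 (-0.36 ± 0.18), Foxm1 (-0.31 ± 0.24), Aurkb (-0.27 ± 0.22), Top2a (-0.20 ± 0.20) and Bub1b (-0.10 ± 0.18) were not called. The robust SD of the statistics was 0.93, and after division by it 3 members passed.

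No member passed the test of a difference between the TAM treatments after adjustment. The combination minus SBRT had a median of 0.04, with 1 member higher at an unadjusted p below 0.05. Of all 32375 genes, 292 passed at that p in either direction and 0.00309% after adjustment. The combination minus IL-12 had a median of -0.35, with 8 lower at that p (444 of all genes in either direction, 0.0741% after adjustment). SBRT minus IL-12 had a median of -0.41, with 6 lower at that p (428 of all genes, 0.0896% after adjustment). The interaction had a median of 0.38, with 4 higher at that p (412 of all genes, 0.0124% after adjustment). With the control variance removed, 5 members were lower after the combination than after IL-12, and 5 were lower after SBRT than after IL-12. The share of all genes that passed under that setting was not counted.

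In IM no member was called after SBRT, by the authors' DESeq2 test, where 0.379% of all 19273 genes tested rose and 0.14% fell. At an unadjusted p below 0.05, 2 were higher and 2 lower, and the median was -0.08. The values ranged from -0.44 ± 0.21 for Cdca5 to 0.48 ± 0.18 for Espl1. Top2a (-0.05 ± 0.21), Cdk1 (-0.18 ± 0.20), Foxm1 (-0.24 ± 0.22) and Stmn1 (-0.10 ± 0.18) were not called, nor were Ccnb1 (-0.22 ± 0.22), Aurkb (-0.11 ± 0.19), Plk1 (-0.03 ± 0.22), Bub1b (-0.18 ± 0.20) and Mki67 (0.16 ± 0.22).

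After IL-12 2 members rose in IM (3.33%), against 1.91% of the 16829 genes tested, and none fell, against 1.33%. They were Pkmyt1 at 0.74 ± 0.20 (adjusted p = 0.0087) and Tacc3 at 0.61 ± 0.19 (0.049). This share is near that of all genes. Cenpp, a centromere protein, had no adjusted p, so 59 members were tested. Plk1 (0.50 ± 0.23), Top2a (0.39 ± 0.22), Mki67 (0.34 ± 0.22), Cdk1 (0.33 ± 0.21), Stmn1 (0.29 ± 0.18), Aurkb (0.26 ± 0.19), Bub1b (0.22 ± 0.20), Ccnb1 (0.21 ± 0.23) and Foxm1 (-0.03 ± 0.23) were not called. The median was 0.26, 14 members were higher at an unadjusted p below 0.05, and with adjustment over every gene with a p only Pkmyt1 passed.

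After the combination 7 members rose in IM (11.7%), against 3.69% of the 18660 genes tested, and none fell, against 3.03%. Esco2 had the highest value, 0.82 ± 0.24 (1.76-fold, adjusted p = 0.014). The others were Ncapd2, a condensin subunit (0.64 ± 0.21, adjusted p = 0.034), Cks2 (0.62 ± 0.18, 0.017), Kif2c, a microtubule depolymerase at centromeres (0.59 ± 0.19, 0.034), Tacc3 (0.59 ± 0.19, 0.039), Pkmyt1 (0.59 ± 0.20, 0.042) and Pttg1 (0.48 ± 0.15, 0.028). The median was 0.28 (1.21-fold), and Mki67 (0.32 ± 0.22), Top2a (0.22 ± 0.22), Ccnb1 (0.42 ± 0.23), Aurkb (0.16 ± 0.19), Plk1 (0.21 ± 0.22), Bub1b (0.17 ± 0.20), Stmn1 (0.41 ± 0.18) and Foxm1 (0.20 ± 0.24) were not called. Cdk1 was at 0.61 ± 0.21 (adjusted p = 0.059). Cdc25b had the lowest value, -0.47 ± 0.23 (adjusted p = 0.25). With adjustment over every gene with a p 3 members passed, and after division by the robust SD of 1.28 none did.

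In IM, too, no difference between treatments passed in any member after adjustment. The combination minus SBRT had a median of 0.28, with 9 higher and 1 lower at an unadjusted p below 0.05. Of all 32818 genes, 752 passed at that p in either direction and 0.204% after adjustment. With the control variance removed 3 members passed. The combination minus IL-12 had a median of -0.01 and 1 higher at that p (225 of all genes in either direction, 0% after adjustment). SBRT minus IL-12 had a median of -0.30, with 1 higher and 6 lower at that p (406 of all genes, 0.0244% after adjustment). Here 1 member passed with the control variance removed, and the share of all genes under that setting was not counted in either case. The interaction had a median of 0.03 and none at that p (340 of all genes, 0.00305% after adjustment).

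Tested directly, the response to the combination differed between CD8 T cells and TAM in most members. The difference, CD8 minus TAM, was called above 0 for 54 of 60 members (90%), against 1.53% of all 29690 genes tested, and below 0 for none. Its median was 1.40 on the log2 scale. Bub1 differed by 2.22 ± 0.29 (adjusted p = 7.7e-11), being at 0.96 in CD8 T cells and -1.26 in TAM. Kntc1 differed by 2.39 ± 0.32 (adjusted p = 3.1e-10), being at 0.94 and -1.46. Stmn1 differed by 1.75 ± 0.25 (1.9e-09), Ube2c by 2.02 ± 0.30 (1.3e-08), Cks1b by 1.68 ± 0.25 (1.4e-08) and Cdk1 by 1.75 ± 0.26 (2.9e-08). Mki67, near 0 in TAM, also differed, by 1.13 ± 0.28 (adjusted p = 0.0041). The 6 members not called were Cenpa, Cdc25c, Smc4, Cks2, Bub3 and Pttg1. Of all genes tested after the combination, 4.51% rose in CD8 T cells and 1.97% fell in TAM, and the overlap of these genes was not counted. Of the 60 members 55 rose in CD8 T cells (91.7%), so most members lower in TAM were bound to be among these. Called in opposite directions in the authors' deposited tables were 24 members, which are 24 of the 55 higher in CD8 T cells and 24 of the 25 lower in TAM. Besides those given above they included Ccnb2 (0.77 ± 0.17 in CD8 T cells and -0.84 ± 0.26 in TAM), Fbxo5 (0.82 ± 0.14 and -0.86 ± 0.26), Mad2l1 (0.83 ± 0.15 and -0.82 ± 0.23), Cdca8 (0.78 ± 0.17 and -0.80 ± 0.24), Cenpf (0.72 ± 0.14 and -0.94 ± 0.27) and Cenpp (0.64 ± 0.19 and -0.70 ± 0.21). They also included Pkmyt1 (0.53 ± 0.12 and -1.04 ± 0.26), Tacc3 (0.84 ± 0.13 and -0.78 ± 0.24), Tpx2 (0.76 ± 0.16 and -1.22 ± 0.25), Kif4 (0.65 ± 0.18 and -1.13 ± 0.26), Kif23 (0.85 ± 0.14 and -0.96 ± 0.27), Anln (0.73 ± 0.20 and -1.14 ± 0.25), Ncapd2 (0.69 ± 0.16 and -0.80 ± 0.26), Espl1 (0.71 ± 0.16 and -0.69 ± 0.20), Esco2 (1.16 ± 0.16 and -0.88 ± 0.27), Cks1b (0.81 ± 0.12 and -0.88 ± 0.22) and Ube2c (0.96 ± 0.15 and -1.06 ± 0.26). The exception in TAM was Cdc25b (-0.94 ± 0.25), at 0.31 ± 0.11 in CD8 T cells (adjusted p = 0.07).

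**Figure D4:**
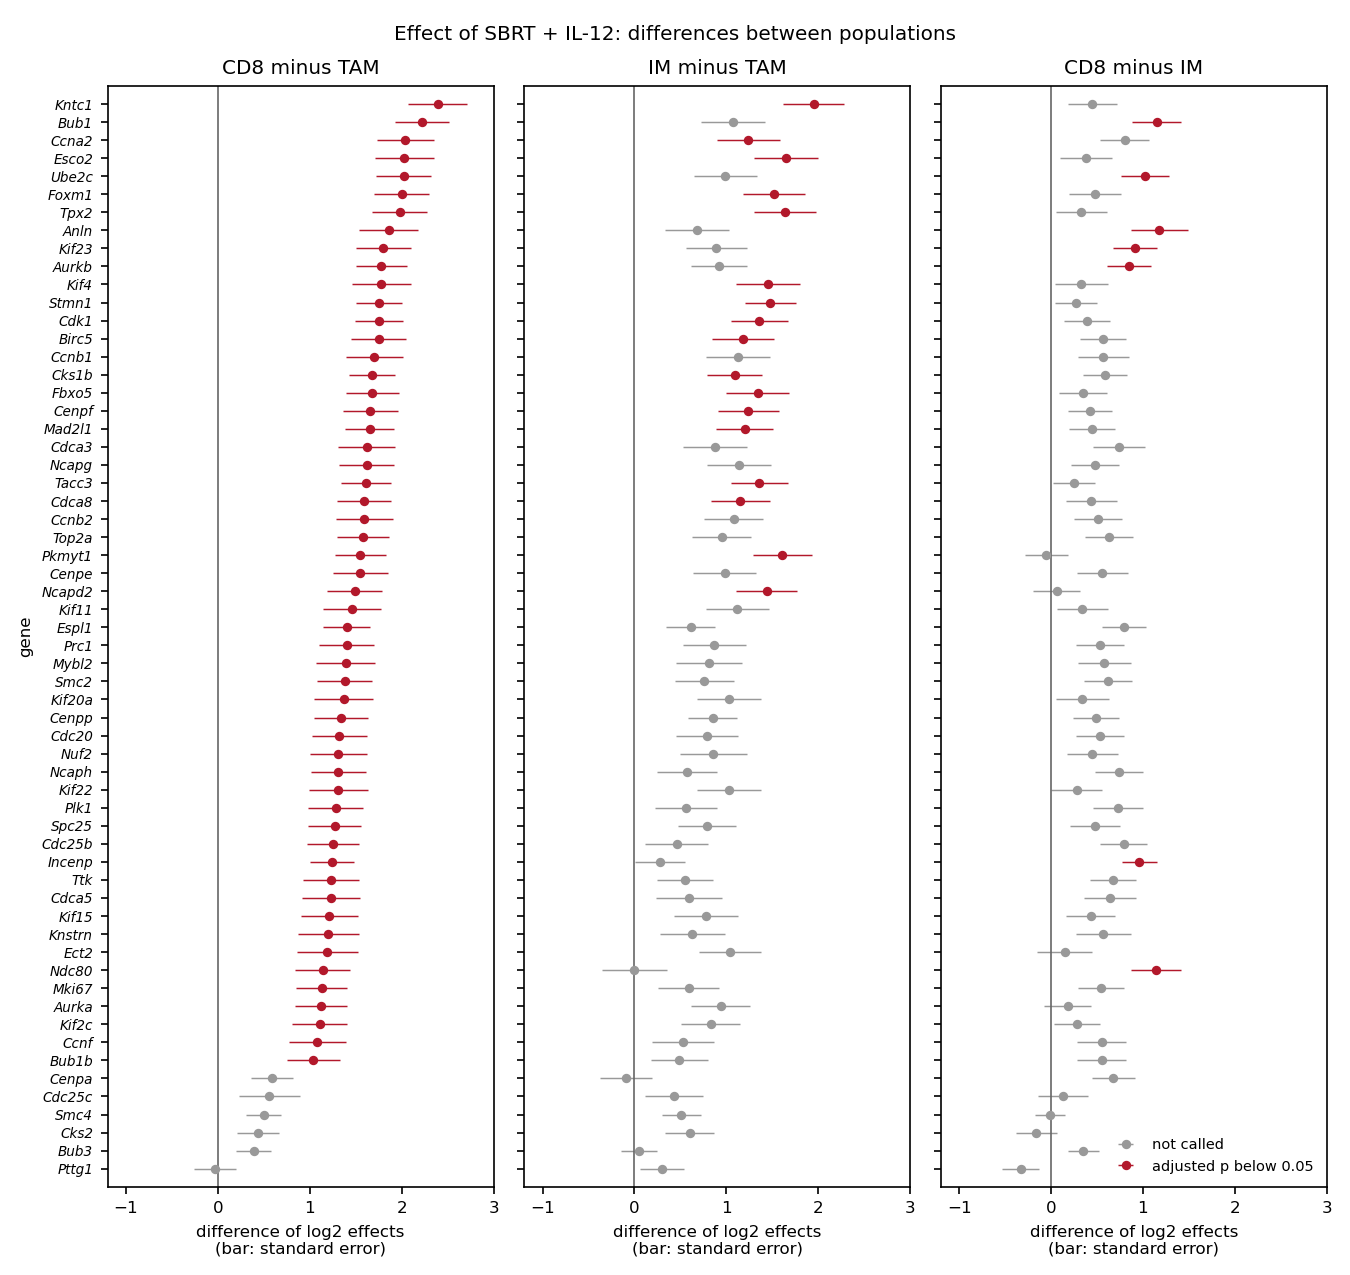
Difference of the log2 fold change after the combination between populations (horizontal axis, 1 panel per pair; bars are standard errors) for the 60 genes (vertical axis); filled points have an adjusted p below 0.05. In the panel of CD8 minus TAM 54 genes are filled, in IM minus TAM 17 and in CD8 minus IM 7, all to the right of 0.

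IM also differed from TAM after the combination. The difference, IM minus TAM, was called above 0 for 17 members (28.3%), against 0.572% of all 30093 genes, and its median was 0.91. It was 1.95 ± 0.33 for Kntc1 (adjusted p = 7.5e-06), 1.48 ± 0.28 for Stmn1 (9.8e-05), 1.61 ± 0.32 for Pkmyt1 (4.2e-04), 1.64 ± 0.34 for Tpx2 (7.6e-04), 1.65 ± 0.35 for Esco2 (0.0014) and 1.36 ± 0.31 for Tacc3 (0.0029). By the authors' deposited calls, 4 members were higher in IM and lower in TAM, namely Tacc3, Esco2, Ncapd2 and Pkmyt1, which are 4 of the 7 and 4 of the 25. Of all genes tested, 3.69% rose in IM and 1.97% fell in TAM, and the overlap of these genes was not counted. Between CD8 T cells and IM the difference was called above 0 for 7 members (11.7%), against 0.838% of all 30055 genes, with a median of 0.50. With the statistics scaled by the robust SD of all genes, a looser setting here, 31 members passed in IM minus TAM and 12 in CD8 minus IM. The 7 were Incenp (0.96 ± 0.19, adjusted p = 1.0e-04), Ndc80 (1.14 ± 0.27, 0.003), Bub1 (1.15 ± 0.27, 0.0031), Ube2c (1.02 ± 0.26, 0.01), Anln (1.18 ± 0.31, 0.013), Kif23 (0.91 ± 0.24, 0.013) and Aurkb (0.85 ± 0.24, 0.023).

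The response to SBRT differed between CD8 T cells and TAM in 25 members (41.7%), all above 0, with a median of 1.03. Of all 29690 genes 0.461% were called above 0, and 54 genes were called below 0. Pkmyt1 differed by 1.89 ± 0.28 (adjusted p = 6.1e-08), Stmn1 by 1.52 ± 0.25 (1.1e-06), Bub1 by 1.63 ± 0.29 (2.8e-05), Kntc1 by 1.72 ± 0.32 (1.0e-04), Cks1b by 1.28 ± 0.25 (2.1e-04) and Anln by 1.63 ± 0.32 (3.4e-04). IM minus TAM was called above 0 for 3 members (5%), which were Pkmyt1 (1.53 ± 0.32, adjusted p = 0.0022), Espl1 (1.11 ± 0.27, 0.021) and Stmn1 (1.12 ± 0.28, 0.024). Of all 30093 genes 0.106% were called above 0, and 47 genes were called below 0. CD8 minus IM was called for none, where 0.00998% of all 30055 genes were called above 0 and 3 genes below 0. At an unadjusted p below 0.05, 13 members were higher, and 1508 of all genes passed in either direction. With the statistics scaled by the robust SD of all genes, 43, 21 and 1 members passed in the order given. This scaling was looser than the main test here, and the share of all genes that passed under it was not counted.

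The response to IL-12 differed between CD8 T cells and TAM in 6 members (10%), all above 0, with a median of 0.76. Of all 29690 genes 0.118% were called above 0, and 23 genes were called below 0. The 6 members were Ccna2 (1.50 ± 0.31, adjusted p = 0.0027), Ube2c (1.44 ± 0.30, 0.0029), Cdk1 (1.25 ± 0.26, 0.0034), Cdc25b (1.29 ± 0.28, 0.0057), Anln (1.35 ± 0.32, 0.026) and Stmn1 (0.99 ± 0.25, 0.037). IM minus TAM was called for none, where 0.00997% of all 30093 genes were called above 0 and 15 genes below 0. At an unadjusted p below 0.05, 25 members were higher, and 1053 of all genes passed in either direction. CD8 minus IM was also called for none, where 0.216% of all 30055 genes were called above 0 and 75 genes below 0. At that unadjusted p, 10 members were higher, and 1883 of all genes passed in either direction. With the statistics scaled by the robust SD of all genes, 28, 11 and 1 members passed in the order CD8 minus TAM, IM minus TAM and CD8 minus IM. The scaling was again looser than the main test.

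The order of the members was compared between populations. The fold changes after the combination in CD8 T cells and TAM had a Pearson r of -0.39 and a Spearman rho of -0.23, and those in CD8 T cells and IM 0.24 and 0.13. These are correlations across genes, which share libraries and are not independent, so they are given as a description.

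Other genes of mitosis, 105 named in a separate list, were counted in the same way. In CD8 T cells 56 rose after the combination (median 0.52), 21 rose and 1 fell after IL-12, and 2 rose after SBRT, where 4.51%, 1.48% and 0.306% of all genes rose in that order. After the combination Dsn1, a subunit of the Mis12 kinetochore complex, was at 0.82 ± 0.11 (adjusted p = 5.4e-10), Depdc1a at 0.99 ± 0.14 (5.7e-10) and Gtse1 at 1.08 ± 0.15 (1.6e-09). After IL-12 Ckap2 was at 0.69 ± 0.15 (adjusted p = 8.0e-04), Nusap1 at 0.70 ± 0.16 (0.002) and Oip5 at 0.77 ± 0.17 (0.0023). The 2 genes that rose after SBRT were Dsn1 (0.51 ± 0.11, adjusted p = 0.012) and Ckap2 (0.63 ± 0.15, 0.014). Numa1, which organises spindle poles, was the gene that fell after IL-12, at -0.49 ± 0.15 (adjusted p = 0.047). As 1 of 105 it was near the 1.04% of all genes that fell in CD8 T cells after IL-12. In TAM 7 fell and 1 rose after SBRT, none was called after IL-12, and 9 fell and 1 rose after the combination. Of all genes 1.15% fell and 0.933% rose after SBRT, and 1.97% fell and 2.24% rose after the combination. The 1 of 105 that rose was near or below these shares. Racgap1, a partner of Kif23 in the central spindle, was at -1.08 ± 0.22 after SBRT (adjusted p = 2.7e-04), and Spc24, a partner of Spc25 in the Ndc80 complex, at -1.30 ± 0.25 after the combination (3.9e-05). Shcbp1 was at -1.19 ± 0.27 after SBRT (adjusted p = 0.0018) and -1.34 ± 0.26 after the combination (8.2e-05), and Fam64a at -1.18 ± 0.24 after the combination (1.3e-04). Cenph fell after SBRT (adjusted p = 0.012). The gene that rose in TAM was Psrc1, a microtubule-binding protein of the spindle, at 2.02 ± 0.25 after SBRT (adjusted p = 3.1e-12) and 1.76 ± 0.25 after the combination (2.6e-09), and it also rose in CD8 T cells after the combination (0.85 ± 0.23, 0.0077). In IM 1 fell after SBRT, Casc5, a kinetochore scaffold (-0.79 ± 0.21, adjusted p = 0.037), 2 rose after IL-12 (Nek2 at 0.83 ± 0.23, adjusted p = 0.014, and Fam64a at 0.72 ± 0.23, 0.049), and 7 rose after the combination, led by Pmf1 (0.56 ± 0.13, adjusted p = 0.0014), Spdl1 (0.82 ± 0.22, 0.0054) and Haus4 (0.66 ± 0.19, 0.013). Of all genes 0.14% fell in IM after SBRT, 1.91% rose after IL-12 and 3.69% rose after the combination. The 2 of 105 that rose after IL-12 were near the share of all genes.

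Genes of DNA replication and of cell cycle control were counted beside the members. Of all genes tested, 4.51% rose in CD8 T cells after the combination, 1.48% after IL-12 and 0.306% after SBRT. In TAM 1.15% fell and 0.933% rose after SBRT, and 1.97% fell and 2.24% rose after the combination. In IM 0.379% rose after SBRT, 1.91% rose and 1.33% fell after IL-12, and 3.69% rose and 3.03% fell after the combination. Of 28 S phase genes 26 rose in CD8 T cells after the combination, 8 after IL-12 and 4 after SBRT, with medians of 0.68, 0.36 and 0.32. Rrm2, a subunit of ribonucleotide reductase, was at 1.13 ± 0.14 (adjusted p = 3.6e-12) and Ccne1, cyclin E1, at 0.67 ± 0.09 (9.4e-12) after the combination. In TAM 12 fell after SBRT and 17 after the combination and none was called after IL-12, Mcm5, a subunit of the replicative helicase, being at -1.12 ± 0.22 (adjusted p = 9.6e-05) and -1.34 ± 0.22 (3.8e-07). The S phase medians in TAM were -0.72 after SBRT, -0.32 after IL-12 and -0.76 after the combination, and in IM 0.01, 0.26 and 0.34. In IM 1, 2 and 6 rose after SBRT, IL-12 and the combination, Gins2, another helicase factor, being at 0.73 ± 0.18 (adjusted p = 0.017), 0.77 ± 0.18 (0.0014) and 1.13 ± 0.18 (8.1e-08). Of 16 E2F and DREAM genes 5 rose in CD8 T cells after the combination, led by E2f2 (0.92 ± 0.16, adjusted p = 4.1e-06), and 4 fell in TAM after it, led by E2f8 (-0.90 ± 0.25, adjusted p = 0.014). Of these, 1 rose in CD8 T cells after IL-12 (E2f2) and 1 fell in IM after IL-12 (Rb1, -0.42 ± 0.13, adjusted p = 0.035), and none was called in the other comparisons. Of 17 p53 targets 13 rose in TAM after SBRT and 13 after the combination and none after IL-12, with medians of 0.92, 0.88 and -0.08. Phlda3 had the smallest adjusted p of them, at 3.49 ± 0.19 after SBRT (6.2e-73) and 3.31 ± 0.19 after the combination (2.7e-65). Cdkn1a, which encodes the Cdk inhibitor p21, was at 1.41 ± 0.16 (adjusted p = 6.2e-16) and 1.29 ± 0.16 (5.2e-13) in TAM. Cdkn1a was the only p53 target called in CD8 T cells, where it rose after SBRT (0.59 ± 0.15, adjusted p = 0.032) and the combination (0.94 ± 0.15, 3.8e-07). In IM no p53 target was called after SBRT, 1 fell after IL-12 (Btg2), and 3 rose and 1 fell after the combination, with Cdkn1a at 0.09 ± 0.12 after SBRT.

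Markers of the sorted and of other cell types were counted beside these results, and their part in them was not tested. The 5 T cell markers summed to a level of 184086 in CD8 T cells, 1222 in IM and 1137 in TAM, and the 4 macrophage markers to 217788 in TAM, 103084 in IM and 1776 in CD8 T cells. Of the monocyte markers, Ly6c2 had a level of 49540 in IM, 2391 in TAM and 16630 in CD8 T cells, and Ccr2 one of 48376, 13282 and 2769. No marker of the 12 cell types was at exactly 0 in any population. In TAM the fibroblast marker Col1a1 fell after SBRT (-1.47 ± 0.24, adjusted p = 8.6e-07) and after the combination (-1.09 ± 0.25, 9.8e-04). The 4 epithelial markers had a median of -0.61 in TAM after SBRT and 0.04 after the combination with none called, and their summed level was 1995. The 5 T cell markers had medians of -0.35 and 0.11 in TAM with none called. In CD8 T cells 1 marker fell after IL-12 and the combination, the endothelial marker Pecam1 (-0.72 ± 0.20, adjusted p = 0.02, and -0.72 ± 0.20, 0.0092), and 1 rose after SBRT, the acinar marker Prss2 (1.09 ± 0.24, 0.0068). In IM Ly6c2, which encodes the sort marker Ly6C, rose by 1.16 ± 0.15 after IL-12 (adjusted p = 3.0e-12) and 1.10 ± 0.15 after the combination (1.4e-11), and none of the 39 was called after SBRT. The 13 mitochondrially encoded genes had medians between -0.32 and -0.10 in IM and TAM and between -0.05 and 0.03 in CD8 T cells, with 1 called, in IM after the combination. Markers of neutrophils, natural killer, B and erythroid cells were called in no comparison, the dendritic marker Flt3 fell in IM after IL-12 (-1.36 ± 0.23, adjusted p = 1.2e-06) and the combination (-1.46 ± 0.23, 3.2e-08), as did the monocyte marker Ccr2 (-0.46 ± 0.11, 0.0023, and -0.58 ± 0.11, 1.6e-05), and the endothelial marker Pecam1 and the macrophage marker C1qa rose in IM after the combination (0.72 ± 0.20 and 0.60 ± 0.18).

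The reads of some members could not be told apart from those of other genes. The libraries did not mark strand, and 17 members share exon bases with another gene on GRCm38, among them Ccna2 with Exosc9 (428 bases), Kif20a with Cdc23 (977), Kif4 with Pdzd11 (683) and Ncapg with Lcorl (699). In IM and TAM the neighbour had the higher level in several of these, Exosc9 standing at 592 in IM and 674 in TAM where Ccna2 had 185 and 393. In addition, 6 members, Ccnb1, Cks2, Mad2l1, Mki67, Mybl2 and Stmn1, have pseudogene copies that match them at 95% identity or more over at least 200 bases, so their values are less certain.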

How the data were processed

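RNA sequencing of sorted cells was deposited by the authors as 9 tables, each a treated group against the unirradiated group of the same population. Per the file headers the columns are those of DESeq2, whose version and design are not given in the sources used here. The deposited level is a mean normalised signal over all libraries of a population. The authors' fold changes are on the log2 scale and shrunken, the deposited test statistic is a Wald score, and the deposited p-values are given raw and adjusted. The submitters' processing notes name, without roles, build GRCm38, Salmon, featureCounts, Subread, STAR 2.6.0c, FastQC 0.11.8 and Trimmomatic 0.36. No values per library were used, so the depth of each library is unknown here and nothing was refitted.

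The standard error is the ratio of fold change to Wald statistic, which is approximate because the fold changes are shrunken. Differences between populations or treatments were tested with a normal test on the difference of statistics. Each statistic was multiplied by 1 standard error per gene and population (the median of its tables). The p-values were adjusted by Benjamini-Hochberg across every gene that had a p. The procedure was also run on simulated normal effects with known errors and independent populations. That run does not cover shrunken fold changes or populations from the same tumours. Populations were treated as independent. Between treatments of a population, the covariance from shared controls was left out, which widens the error. Alternatives were adjustment over all genes with a p, an empirical null, centred fold changes, a level of at least 50, each table's own standard error, and removal of the control variance. They were counted over the members only, and the share of all genes passing under them was not counted. The members and all lists (role groups, other mitosis genes, S phase, p53 targets, E2F and DREAM genes, mitochondrially encoded genes, and cell type markers) were chosen with earlier results of these data known.

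Genes were named by rule, namely per comparison the called members with the 12 smallest adjusted p, per role group the smallest adjusted p and the value nearest 0, every member called in opposite directions, per difference test the 6 smallest adjusted p, and Mki67, Top2a, Cdk1, Ccnb1, Aurkb, Plk1, Bub1b, Foxm1 and Stmn1 throughout. Other mitosis genes were named up to 3 per comparison and context genes up to 2. Some further members were named after their values were seen, and 1 context gene is not reported here. Gene models were from GENCODE, promoters from RefSeq, and copies were found with BLAST 2.17.0. Python 3.11.15, numpy 2.4.6, pandas 2.3.3, scipy 1.17.1 and matplotlib 3.10.9 were used.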

Additional observations from a re-analysis of the deposited data

Results flagged for a closer look

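The responses of members differed between populations by a test of the difference itself. After SBRT, 25 members differed between CD8 T cells and TAM and 3 between IM and TAM. After IL-12, 6 members differed between CD8 T cells and TAM. After the combination, 54 members differed between CD8 T cells and TAM, 17 between IM and TAM and 7 between CD8 T cells and IM. All these differences had the higher value in the population named first. The populations were sorted separately and normalised separately, and the part of either in the differences was not tested.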

How the results depend on the processing

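No paired analysis was possible because the deposited tables hold 1 value per gene and comparison and none per library, and for the same reason leaving out single libraries was not run. Under the alternatives, 74 counts of members stayed within 1.5 times the count reported and 25 did not. The 74 include results with 0 members under both settings, such as IM after SBRT and most differences between treatments. With adjustment over all genes with a p, the members called were 1 in IM after IL-12 and 3 in IM after the combination. With an empirical null they were 1 and 0 in IM after IL-12 and the combination, 3 and 11 in TAM after IL-12 and the combination, and 0, 4 and 33 in CD8 T cells after SBRT, IL-12 and the combination. For differences between populations this null was looser than the main test. With the same null the members differing after SBRT were 43 in CD8 minus TAM, 21 in IM minus TAM and 1 in CD8 minus IM. After IL-12 they were 28, 11 and 1 in that order, and after the combination 31 in IM minus TAM and 12 in CD8 minus IM. With a level of at least 50, 5 members differed in IM minus TAM after SBRT and 2 in CD8 T cells between the combination and SBRT. With the control variance removed, 3 members differed in IM between the combination and SBRT and 1 between SBRT and IL-12. In TAM 5 differed between the combination and IL-12 and 5 between SBRT and IL-12, and in CD8 T cells 23 between the combination and SBRT and 1 between SBRT and IL-12. The cause was not tested. Among single named genes, 486 values stayed on the same side of the 0.05 threshold, including values called under neither setting. A call was lost in 35 and gained in 2. Both gains were for Cdk1 in IM after the combination (adjusted p = 0.048 when centred and 0.046 with a level of at least 50). None changed direction, but only centring alters a fold change, so under the other alternatives the direction could not change.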
